A study of Arabis alpina with 12 samples.

Results

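H3K27me1, histone H3 monomethylated at lysine 27, was profiled by chromatin immunoprecipitation and sequencing (ChIP-seq) in young leaves of Arabis alpina, a perennial relative of Arabidopsis. The members described here are the 56694 H3K27me1 domains in the authors' list, out of 178416 domains in the 4 lists of the series, and none was left out. The list stands for 2 H3K27me1 ChIP libraries set against 1 ChIP input library without antibody. The plants were of accession Pajares, without any other genotype or treatment in the labels, and grew in soil with 16 h of light and 8 h of dark a day at 22.5 °C. Domains were read against the 24657 genes of a table of mRNA coverage, made from 1 mRNA library of the same tissue. Nothing in the labels ties a replicate to a plant or a pool of plants.

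In Arabidopsis, H3K27me1 is laid down largely by the Trithorax-related enzymes ATXR5 and ATXR6 and is concentrated in the heterochromatin around the centromeres and over transposons. Double mutants of these enzymes replicate heterochromatin more than once in a cell cycle and release the silencing of some transposons. It is usually scarce over actively transcribed genes. The genome of Arabis alpina is known for its many retrotransposons and large gene-poor regions.

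The 2 replicates share 1 list, so no value here has a replicate error and no test across replicates was possible. Intervals are 95% intervals (exact for shares, from order statistics for medians) and cover counting error only, and neighbouring domains are not independent. Sequencing depth is unknown for each library. Sequence extent means the summed furthest ends of domains and genes over 3000 sequences, which came to 284.4 Mb, of which 234.6 Mb lay on 8 chromosomes. The gene identifiers carry no names in the files, so leaf marker genes could not be looked up, and "listed genes" are those of the mRNA table, where no coverage is below 1. No sequence is printed, since no genome was used here.

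H3K27me1 domains were short and lay close together. Their median length was 600 bp (interval 600 to 600 bp, n = 56694), with quartiles of 450 and 1050 bp and a mean of 857 bp. Lengths were whole multiples of 150 bp, and the commonest length was 450 bp, held by 11115 domains. Domains of 1 kb or more made up 26.5% of the list but 54.5% of its 48.6 Mb. Domains of 3 kb or more numbered 1396 and held 11.3% of the bp, and 147 were of 5 kb or more. As called, the mark was thus spread over many small domains rather than held in a few large ones.

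The longest domain, 13.95 kb on chromosome 2 (2339551 to 2353500), ran over 10 listed genes. The next was 11.25 kb on scaff_73563_1 (45301 to 56550), a scaffold without a listed gene. The third was 9.6 kb on chromosome 6 (3664201 to 3673800), 4.25 kb from the nearest listed gene. The longest domain lying over 20 kb from a listed gene was 7.35 kb on chromosome 3 (21363301 to 21370650), with the nearest listed gene 27.4 kb away. These stretches differed in gene context, and the list does not say what sequence lies under them.

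Gaps between neighbouring domains were short for the most part, with a long tail. The median gap was 750 bp (interval 750 to 750 bp, n = 54864), with quartiles of 300 bp and 2.7 kb. It depends on which domains are kept: it was 2100 bp in the upper 50% of domains by score per kb, whose median length was 750 bp, and 1350 bp for domains of at least the median length. A gap of exactly 150 bp, a single window of the grid, was the smallest and made up 23.9% of all gaps. Gaps of up to 1 kb made up 57.0%. At the other end, 5827 gaps were over 10 kb, 10.6% by number but 68.7% of the bp between domains. Domains therefore came in groups parted by long stretches without the mark.

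**Figure D1:**
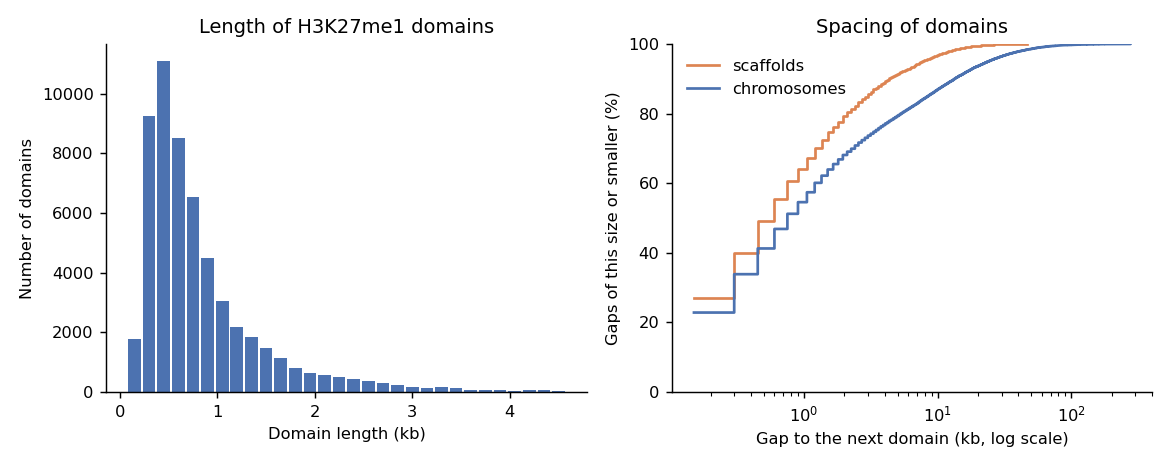
Left, number of H3K27me1 domains by length in steps of 150 bp, up to 4.5 kb; the highest bar is at 450 bp. Right, share of gaps between neighbouring domains at or below the size on the log axis, for scaffolds (orange) and chromosomes (blue); the scaffold curve lies above, with a median of 600 bp against 750 bp.

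When domains within 1 kb of each other were joined, 25430 clusters remained. Of these, 51.1% held a single domain, and the median cluster was 1350 bp long (interval 1200 to 1350 bp). Clusters of at least 5 domains numbered 2698 and held 34.7% of the H3K27me1 bp. The longest cluster, on scaff_41929_1 (19201 to 55950), joined 22 domains over 36.75 kb, 74.7% of it inside domains. The next, on chromosome 4 (8196451 to 8230200), joined 20 domains over 33.75 kb with 79.6% inside. Neither of these clusters touched a listed gene.

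The longest stretch of a chromosome without H3K27me1 was 277.35 kb on chromosome 3 (1799101 to 2076450). It held 54 listed genes, whose spans filled 51.5% of it and whose median mRNA coverage was 6.60, against 5.77 for all listed genes. Gene spans took 22.0% of the whole extent, so this stretch was dense in genes.

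Along the chromosomes, H3K27me1 formed broad regions that differed in how many domains they held and little in how long the domains were. In 470 bins of 500 kb the median share covered was 13.2%, with quartiles of 7.70% and 21.3%. The 133 bins above 20% made up 28.3% of the chromosomal extent and held 50.1% of the chromosomal H3K27me1. The 66 bins below 5% made up 13.7% of the extent and held 3.06%. The rich bins had 304 domains per Mb against 43.4 in the poor bins. Mean domain length was 853 bp in the rich bins and 752 bp in the poor bins, and the median was 600 bp in both. Score per kb of the called domains was also alike, with medians of 247 (interval 246 to 247) in the rich bins and 248 (245 to 252) in the poor bins. Signal outside called domains is not seen in this score. Listed genes stood at 51.3 per Mb in the rich bins and 154 per Mb in the poor bins.

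The bin with the most H3K27me1 was on chromosome 8 (22000001 to 22500000), with 199 domains over 38.8% of its length and 16 listed genes. The bin with the least was on chromosome 7 (28000001 to 28500000), with 9 domains over 0.99% and 84 listed genes. These 2 bins mark the full range of the mark at this scale.

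Chromosome 7 had the longest unbroken run of bins above 20%, 24 bins over 12 Mb (8000001 to 20000000). That run was 41.1% of the chromosome and held 62.0% of its H3K27me1, at 27.1% coverage and 46.8 listed genes per Mb. On chromosome 2 the longest run was 6.5 Mb (10000001 to 16500000) with 33.9% of the chromosome's H3K27me1. On chromosome 6 it was 6 Mb (20500001 to 26500000) with 24.6%, and on chromosome 8 it was 5 Mb (19000001 to 24000000) with 24.6%. On chromosomes 1, 3, 4 and 5 the longest runs were of 1.5 to 2 Mb and held 11.3% to 15.2%. The middles of the first such runs lay between 35.5% and 73.4% of the way along the 8 chromosomes. Chromosome 1 had 2 runs of this greatest length, and the second (23500001 to 25000000, covered to 27.2%) lay near its end.

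The chromosome ends, taken as the bins within 2 Mb of each end, were mostly covered to less than the bin median of 13.2%. The 2 ends of highest coverage were picked out after the values were seen. The last bins of chromosome 1 were covered to 27.2%, in a second run of 3 bins (23500001 to 25000000), while its first bins were covered to 3.28%. The first bins of chromosome 4 were covered to 19.6%. The other 14 ends ranged from 2.98% to 14.5%. The highest of them, at the end of chromosome 6, was above the bin median too. The files do not mark the centromeres, so the runs could not be placed relative to them.

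**Figure D2:**
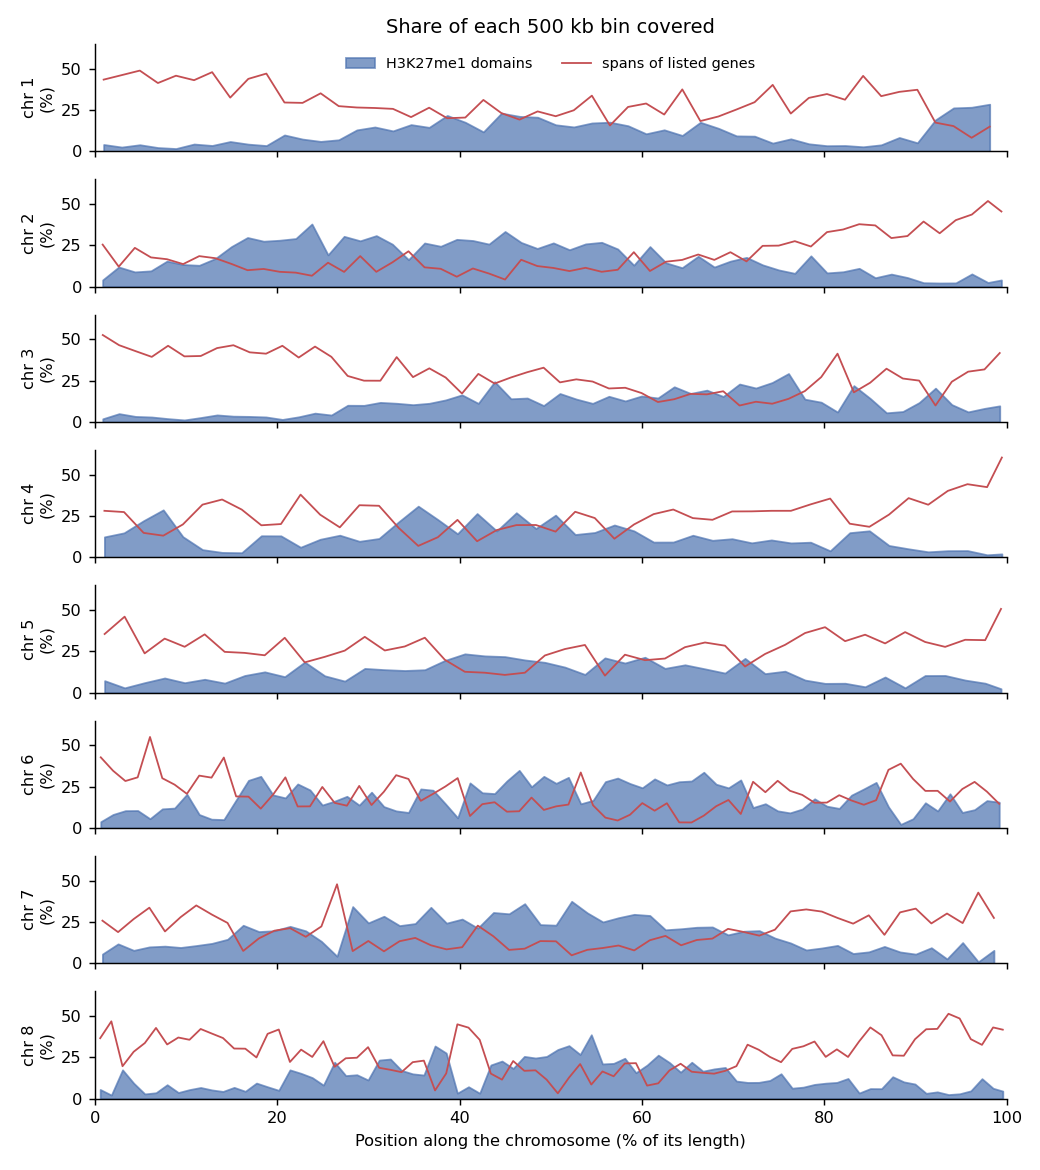
Share of each 500 kb bin in H3K27me1 domains (blue area) and in the spans of listed genes (red line), in percent, along the 8 chromosomes scaled to their own length. Blue is high where red is low, broadly on chromosome 7 and at the right end of chromosome 1.

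Unplaced scaffolds were richer in H3K27me1 than the chromosomes. Domains covered 28.4% of the scaffold extent and 14.7% of the chromosomal extent, with 315 and 175 domains per Mb. Median domain length was 600 bp on both, and the mean was 903 bp on scaffolds and 840 bp on chromosomes. The median gap was 600 bp on scaffolds (interval 450 to 600 bp) and 750 bp on chromosomes (750 to 750 bp). Long gaps set them apart further: the 90th percentile was 4.35 kb on scaffolds and 13.35 kb on chromosomes. Gaps on a scaffold cannot exceed its length, and how much of this difference that sets was not tested. Median score per kb was 257 on scaffolds (255 to 258) and 248 on chromosomes (247 to 248).

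Scaffolds without a listed gene were covered to 33.9%, and those with one to 24.2%. By extent, coverage was 10.7% for scaffolds under 5 kb, 28.4% at 5 to 20 kb, 26.97% at 20 to 50 kb, 29.9% at 50 to 100 kb and 32.0% at 100 kb or more. The smallest class was the poorest and had 493 listed genes per Mb, against 25.4 in the largest. A scaffold enters the extent only through a domain of any mark or a listed gene on it. Among the 689 scaffolds of at least 20 kb the median coverage was 28.4% (26.8% to 29.9%), with quartiles of 15.6% and 38.4%, and 8 carried no domain. The scaffold with most H3K27me1 was scaff_62920_1, where 146 domains covered 40.5% of 330 kb with 7 listed genes. Next came scaff_55975_1, where 104 domains covered 48.1% of 207.6 kb without a listed gene.

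The 8 chromosomes fell in 2 levels. Chromosomes 2, 6 and 7 were covered to 17.8%, 18.4% and 18.0%, with 215 to 216 domains per Mb. The others lay between 11.4% (chromosomes 1 and 3) and 13.5% (chromosome 8), with 133 to 159 domains per Mb. Mean domain length ranged over 824 to 854 bp and median score per kb over 247 to 250, so that here too the number of domains varied more than their length or score. Listed genes stood at 74.8 to 77.9 per Mb on chromosomes 2, 6 and 7 and at 97.2 to 114 per Mb on the others.

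Relative to listed genes, H3K27me1 was lowest in the first 300 bp outside the gene span and increased steadily with distance. It covered 1.45% of the sequence 1 to 300 bp from a gene, 3.14% at 301 to 600 bp and 5.71% at 601 to 1000 bp. Coverage was 9.48% at 1 to 2 kb, 16.1% at 2 to 5 kb and 23.7% at 5 to 10 kb. It reached 29.6% at 10 to 20 kb, 34.2% at 20 to 50 kb and 36.1% beyond 50 kb, against 17.1% over the whole extent. The sequence at 2 to 5 kb was thus near the mean level of the extent. On scaffolds the order was alike and the near levels higher, with 5.06% at 1 to 300 bp on scaffolds and 1.19% on chromosomes, and 35.3% and 33.97% at 20 to 50 kb.

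Pooled over all sequences, the mark was also low inside gene spans, and lowest toward the ends. It covered 1.84% of the outer 300 bp, 2.32% at 0.3 to 1 kb from an end and 4.70% further inside. Levels inside genes were higher on scaffolds. Over 1 kb from the ends they were 17.0% there and 3.77% on chromosomes, and in the outer 300 bp 5.57% and 1.45%. All scaffold sequence was covered to 28.4%. Of the H3K27me1 bp, 3.92% lay in gene spans, at a mean coverage of 3.04%. Strand is not given, so starts and ends of genes were pooled.

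Beside gene ends the mark was lowest where the gene had mRNA signal. Genes were grouped by mRNA coverage: those at 1, the lowest value listed, the others of the lowest 25%, and the 3 further groups of 25%. In the 300 bp next to the gene, H3K27me1 covered 7.35% beside genes at 1 and 1.93% beside the others of the lowest 25%. Beside the further groups, in rising order, it covered 0.899%, 0.495% and 0.535%. At 900 to 1200 bp the 5 values were 12.1%, 8.03%, 6.61%, 7.04% and 6.17%, and at 6 to 6.3 kb they were 26.0%, 22.2%, 21.6%, 22.9% and 21.4%. In the 300 bp next to the gene the lowest and highest of the 5 groups were thus further apart than at the greater distances, in proportion to their levels.

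Within the gene the groups differed more. At 1.2 to 1.5 kb inside the nearest end, coverage was 22.9% for genes at 1, 5.53% for the others of the lowest 25%, and 1.51%, 0.660% and 0.503% for the further groups. Only genes with spans above 2.4 kb contribute at that depth.

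**Figure D3:**
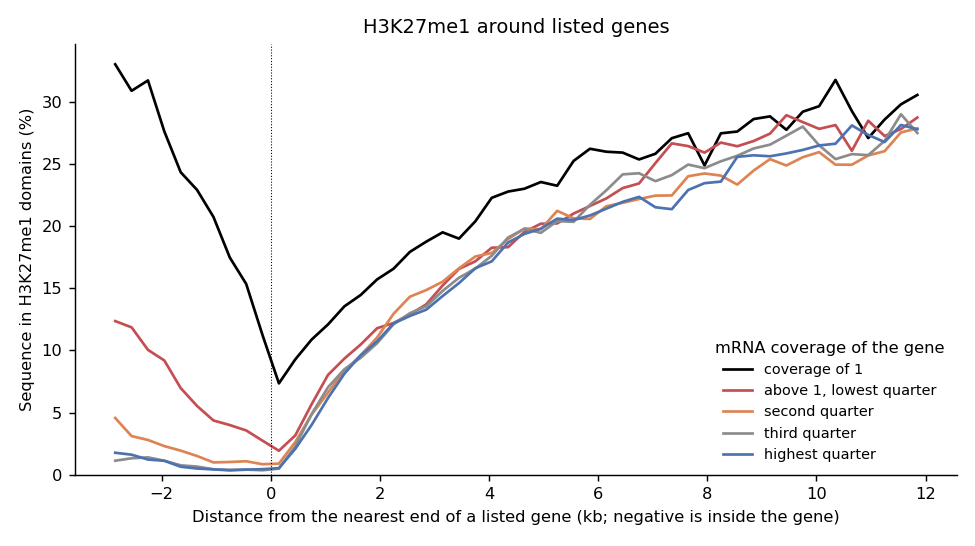
Share of sequence in H3K27me1 domains (y axis, percent) by distance from the nearest end of a listed gene (x axis, kb, negative inside the gene, steps of 300 bp), by mRNA coverage of that gene. Each line is at or near its lowest level at the gene end; genes at a coverage of 1 (black) lie at 7.35% in the first 300 bp outside, above the other 4 lines there.

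Counted by domain, few H3K27me1 domains touched a listed gene. Of 56694 domains, 2071 did, 3.65% (interval 3.50% to 3.81%), and 1518 of these lay wholly inside a gene span. Gene spans took 22.0% of the extent. A further 8082 domains, 14.3%, lay on sequences without a listed gene. Over the 48612 domains on sequences with a listed gene, the median distance to the nearest one was 8.42 kb (8.30 to 8.54 kb, touching domains at 0), with quartiles of 3.36 and 18.6 kb. The furthest lay 174 kb away. The median distance over the whole extent is not given here. By bp, sequence at 1 to 300 bp made up 4.06% of the extent and held 0.345% of the H3K27me1. Sequence at 20 to 50 kb made up 8.44% of the extent and held 16.9%. Where domains touched genes they usually touched a single one: 26 domains touched 2 or more, and 52 held a whole gene.

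Domains at genes were somewhat longer than those elsewhere and alike in score per kb. The mean length was 1058 bp for domains touching a gene and 751 to 779 bp for domains 301 bp to 2 kb away. It was 850 to 875 bp at 5 to 50 kb. Of the touching domains 6.42% were of 3 kb or more, against 1.68% at 301 to 600 bp and 2.36% at 20 to 50 kb. A longer domain is more likely to reach a gene at any given position, and how much of the difference that sets was not tested.

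Long intervals between neighbouring listed genes held H3K27me1 more often than short ones. Of 8086 intervals under 1 kb, 43 held any H3K27me1, 0.532% (0.385% to 0.716%). The share was 2.92% at 1 to 2 kb, 15.5% at 2 to 5 kb, 43.8% at 5 to 10 kb, 72.05% at 10 to 20 kb and 95.8% at 20 to 50 kb. All 110 intervals of 100 kb or more held some. The share of bp covered was 0.363% under 1 kb, 8.76% at 5 to 10 kb, 22.2% at 20 to 50 kb and 34.03% at 100 kb or more. Intervals of 20 kb or more, 2430 in number, held 54.7% of all H3K27me1.

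Across these 2430 long intervals, the pooled share covered differed little by position apart from the edges. How evenly the mark lay within single intervals was not tested. Cut into 10 equal parts, the outermost parts were covered to 17.0% and 16.0%, the next parts to 26.3% each, and the 6 inner parts to between 28.6% and 30.3%. The edge parts of an interval are at least 2 kb long, so they take in the dip beside genes.

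The score, the unlabelled whole number that the authors' list gives each domain, was used per kb of domain and within this list only. Its median was 250 per kb (249.6 to 250) and the range from the 10th to the 90th percentile was narrow, 202 to 347, or 0.809 to 1.39 times the median. No domain was below 163 per kb. By length, the median was 313 per kb in single-window domains and 231 per kb at 450 bp. In longer domains it was higher, with 263 per kb at 1.2 to 1.95 kb, 297.5 per kb at 3 to 4.95 kb and 343 per kb above 5 kb. Across domains, rank correlation of length with score per kb was weak (Spearman rho = 0.12, n = 56694 domains that share libraries).

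Score per kb showed no steady relation to distance from genes. The median was 258 for domains touching a gene (256 to 261), 265 at 1 to 300 bp (258 to 273), and between 245 and 249 in each class from 301 bp to over 50 kb. On sequences without a listed gene it was 260 (259 to 262). For domains touching a gene it was 1.04 times (1.02 to 1.05) that of domains over 5 kb from one, a difference small beside the quartiles of 224 and 314 among the touching domains. Called domains near genes were therefore fewer but scored much the same per kb. Only called domains have a score, with a minimum of 163 per kb, so signal below the cutoff of the caller is not seen. How far that cutoff sets the likeness of the medians was not tested.

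**Figure D4:**
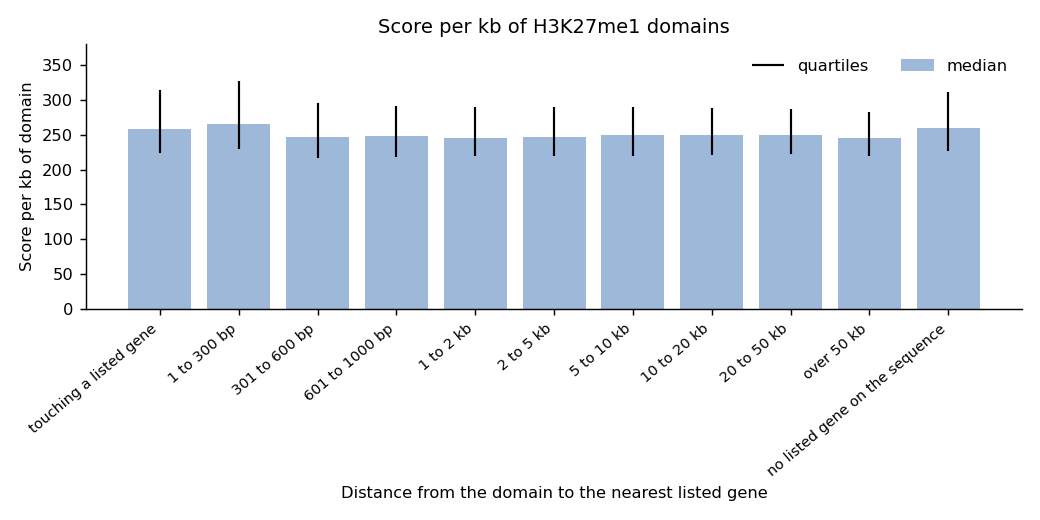
Median score per kb of domain (bars) with quartiles (lines), from domains touching a listed gene to those over 50 kb away and those on sequences without one. The medians lie between 245 and 265 and the quartile ranges overlap in each class.

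A small number of domains had far higher scores. Above 2 times the median per kb there were 1075 domains, 1.90% of the list, and 39.5% of them (36.6% to 42.5%) lay on scaffolds, against 27.7% of all domains. Above 5 times there were 77, on 37 sequences, of which 15 touched a listed gene, 19.5% (11.3% to 30.1%) against 3.65% of all domains. Above 10 times there were 10, which are given here by their values rather than by the rule for named regions. The share touching genes was thus higher among the domains of highest score, in a set of 77.

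The highest of all was the 13.95 kb domain on chromosome 2, at 7595 per kb or 30.4 times the median, and it alone held 0.761% of the summed score of the list. The next 4 lay on a single scaffold, scaff_57616_1, at 16.2 to 17.7 times the median. This scaffold carried 5 domains in all and no listed gene, and its furthest domain ended at 16.05 kb. A 1.2 kb domain on chromosome 1 (645901 to 647100) was at 16.1 times, and one of 0.6 kb on scaff_45023_1 (73501 to 74100) at 13.9 times. The remaining 3, on chromosomes 4, 2 and 8, lay between 10.3 and 10.4 times. Such domains carried 1.16% of the summed score. No input value is given for them, so the input level at these places was not looked at.

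Listed genes overlapped by H3K27me1 had lower mRNA coverage, and among genes free of it the median varied little from 1 bp to 50 kb from a domain. In leaf tissue, fewer cells that use a gene and less RNA per cell cannot be told apart. With 1 mRNA library and genes that are not replicates, no p-value was computed. At least 200 bp of the span lay inside domains in 1134 genes, 4.60% of those listed. Their median coverage was 1.37 (1.26 to 1.46), against 6.35 (6.20 to 6.49) for the 12963 genes over 5 kb from a domain. The difference of medians was -1.63 in log2(coverage + 1), a scale that understates differences between low values. Of the overlapped genes, 451 were at 1, the lowest value listed, which was 39.8% (36.9% to 42.7%), against 8.86% of all listed genes and 6.02% (5.62% to 6.45%) of those over 5 kb away.

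More overlap went with lower coverage. The 463 genes with at least 50% of the span inside had a median of 1 and an upper quartile of 1.70, and 61.6% were at 1 (57.0% to 66.0%). The 671 with 200 bp or more but under 50% inside had a median of 1.82 (1.65 to 2.00), with 24.7% at 1. In 74 genes touched over less than 200 bp the median was 2.40 (2.00 to 3.40). The upper quartile of the genes with at least 50% inside lay under the lower quartile of genes over 5 kb away, whose quartiles were 2.78 and 13.9. The quartile ranges of the 671 genes (1.01 to 4.37), of the 74 genes (1.52 to 4.84) and of all 1134 overlapped genes (1 to 3.12) overlapped with that of the genes over 5 kb away.

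Genes beside a domain but free of it had medians near those of distant genes. The 294 genes with a domain 1 to 300 bp away had a median of 5.99 (4.96 to 7.11), and the 1800 with one 301 to 1000 bp away had 5.82 (5.42 to 6.25). Medians were 5.86 at 1 to 2 kb, 6.24 at 2 to 5 kb, 6.17 at 5 to 10 kb, 6.35 at 10 to 20 kb and 6.40 at 20 to 50 kb. The 650 genes over 50 kb away had the highest, 7.32 (6.63 to 8.15), and 4.15% of them were at 1. From 1 bp to 50 kb the medians thus lay within a narrow range, with many of the intervals overlapping. The share of genes at 1 was lower further away: it was 8.84% at 1 to 300 bp, between 6.86% and 7.21% in the 4 classes from 301 bp to 10 kb, 5.83% at 10 to 20 kb and 5.44% at 20 to 50 kb. By the number of flanks, the 70 untouched genes with a domain within 1 kb on both sides had a median of 5.94 (4.10 to 9.84), the 2024 with one on 1 side 5.85 (5.48 to 6.22), and the 21355 with none 6.12 (5.99 to 6.22).

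**Figure D5:**
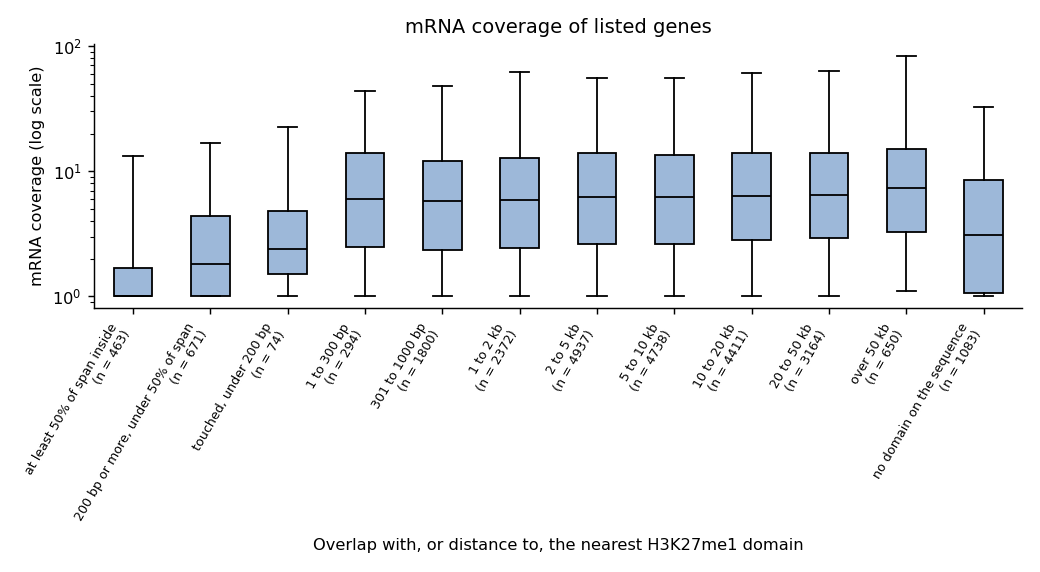
mRNA coverage of listed genes (log axis) by overlap with, or distance to, the nearest H3K27me1 domain, with medians, quartiles (boxes) and 5th to 95th percentiles (whiskers). The 3 overlapped classes at the left have medians of 1 to 2.40, and the distance classes from 1 bp to 50 kb have medians of 5.82 to 6.40.

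The 1083 genes on scaffolds without any domain stood apart from this order. Their median coverage was 3.08 (2.63 to 3.41), 24.3% were at 1, and their median span was 905 bp, against 2091 bp for all listed genes. Gene spans differed in the overlapped set too, with a median of 3560 bp for overlapped genes and 2141 bp for genes over 5 kb away.

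Overlapped genes had the lower median in each of 8 strata of span, sequence type and region. The difference of medians in log2(coverage + 1) ran from -1.85 among spans of middle length to -1.37 in bins under 5%. Among genes with spans up to 1611 bp, medians were 1.44 for overlapped genes and 5.91 for those over 5 kb away. Among those of middle length they were 1.11 and 6.64, and above 2703 bp they were 1.47 and 6.37. On scaffolds they were 1.10 and 5.35, and on chromosomes 1.42 and 6.38. In 500 kb bins covered to over 20%, the medians were 1.08 (1.00 to 1.30, 256 genes) and 6.08 (5.47 to 6.61, 1036 genes). In bins of 5% to 20% they were 1.57 and 6.33. In bins under 5% they were 1.93 (1.36 to 2.47, 90 genes) and 6.58 (6.31 to 6.85, 3762 genes). Untouched genes within 1 kb of a domain in the rich bins had a median of 6.48 (5.71 to 7.40, 529 genes), and in bins under 5% such genes had 6.35 (5.20 to 7.79, 229 genes).

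Overlapped genes with long spans more often had the mark at neither end than at both ends. Of 851 overlapped genes with spans of at least 2 kb, 391 had it at neither end, 45.9% (42.6% to 49.4%), where an end counts as marked with at least 150 of its outer 300 bp in domains. It was at 1 end in 36.0% (32.7% to 39.3%) and at both ends in 18.1% (15.6% to 20.9%). Genes with both ends marked had a median coverage of 1 and 92.3% of their span inside. Those with neither end had a median of 1.79 (1.59 to 2.11) and 15.3% inside. Since the classes are set by overlap at the ends, the share inside follows from them in part. The outer 300 bp at each end are also only a part of the span. How much of the order of the classes that sets was not tested.

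Among genes at least 50% inside, the highest mRNA coverage was 464.6, in Aa_G288930 on chromosome 2 (2342633 to 2343737), followed by 436.0 in Aa_G288970 (2349232 to 2350256). Both lay wholly in the longest domain, whose 10 genes ranged from 9.10 to 464.6 with a median of 232. Without those 10 genes, 30 of 453 genes at least 50% inside were above the median of all listed genes, 6.62%, and the highest was Aa_G184140 on chromosome 8 (28398362 to 28399546) at 127.5, chosen after its value was seen. It too lay in one of the 10 domains of highest score per kb. The longest gene at least 50% inside was Aa_G222160 on chromosome 7 (6349649 to 6394038), a listed span of 44390 bp with 19 domains over 68.9% of it and a coverage of 1.79. Next was Aa_G157660 on chromosome 6 (31940846 to 31959246), 18401 bp with 61.2% inside and a coverage of 1. The functions of these genes are not given in the files.

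Set beside the other lists of the series, H3K27me1 domains as called lay furthest from listed genes. The others are cytosine methylation (5mC, from immunoprecipitated methylated DNA), H3K27me3, the mark of Polycomb repression, and H3K4me3, a mark of active gene starts. The median distance was 8.42 kb (8.30 to 8.54) for H3K27me1, 6.59 kb (6.49 to 6.69) for 5mC, 3.26 kb (3.15 to 3.36) for H3K27me3 and 0 for H3K4me3. Joined across gaps of up to 1 kb, H3K27me1 domains had a median distance of 5.84 kb. The other lists were not joined, so whether the order holds for joined domains was not tested. The share of domains touching a listed gene was 3.65% for H3K27me1, 4.43% for 5mC, 18.2% for H3K27me3 and 54.2% for H3K4me3. In the first 300 bp outside genes, H3K27me1 covered 1.45%, 5mC 4.10%, H3K27me3 4.50% and H3K4me3 6.55% of the sequence. Beyond 50 kb the shares were 36.1%, 40.1%, 6.43% and 8.51% in that order. In proportion to their levels, H3K27me1 and 5mC were thus closer to each other beyond 50 kb than in the first 300 bp outside genes. Inside genes, over 1 kb from the ends, H3K27me1 covered 4.70% and 5mC 5.43%. Median domain length was 600 bp for H3K27me1, 5mC and H3K4me3, and 900 bp for H3K27me3. These lists were called separately, and the differences were not tested.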

How the data were processed

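Per the labels' protocols, chromatin was immunoprecipitated from young leaves and libraries were read on an Illumina Genome Analyzer IIx. Per the submitters' processing notes, Bowtie and SICER, a caller of broad domains, were used; the sources used here give no versions, parameters, genome build or way of joining replicates. The authors' deposited domain lists give start, end and a whole-number score without a header. The deposited mRNA table gives a coverage signal per gene, whose scaling is not stated.

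Starts were read as 0-based and ends as inclusive; positions are printed 1-based on the authors' assembly. Distance was counted between nearest bases, 0 where spans touch. Overlapping gene spans were merged for distances, with the highest coverage group kept. Bins under 250 kb at chromosome ends were left out. Shares carry exact Clopper-Pearson intervals. Python 3.11.15, numpy 2.4.6, pandas 2.3.3 and scipy 1.17.1 were used, and interval functions were tested on simulated data. Named regions and genes are the longest, the highest in score per kb or coverage, and the extreme bins, with at most 2 identifiers per gene set. The members, lists and strata were chosen with earlier results of these data known.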

Additional observations from a re-analysis of the deposited data

How the results depend on the processing

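Of 29 alternative values, 10 stayed inside the interval of the reported value and 19 lay outside it. Direction was read only for the score ratio and the mRNA difference, where 0 alternatives reversed. For these 2 results the interval was made from opposite ends of the intervals of 2 medians. For the scaffold share it took domains as the sample size, although bp are not independent, so these counts are a rough guide. No paired analysis was possible because the 2 replicates share 1 domain list, and leaving out a replicate was not possible for the same reason. In the upper 50% of domains by score per kb, median length was 750 bp, median gap 2100 bp, the scaffold share of the bp 31.7% (29.1% as reported), the share touching a gene 4.08% and the mRNA difference -1.76. When domains under the median length were dropped, the gap was 1350 bp, the scaffold share 29.6% and the distance to genes 8.77 kb. In the upper 50% by score the scaffold share was 30.4%. On the 8 chromosomes alone the distance was 8.06 kb and the share touching 3.93%. The distance was 8.86 kb from the middle of domains and 9.57 kb to genes with coverage above 1. Joining domains across gaps of up to 1 kb gave a length of 1350 bp and, as an alternative added after seeing the data, a distance of 5.84 kb. Without division by length, the score of domains touching genes was 1.13 times that of distant ones. The mRNA difference was -1.88 at 50% of the span, -1.17 for genes with coverage above 1 and -0.83 with a pseudocount of 5; 2 alternatives added after seeing the data (without the genes on the longest domain, and the longest spans alone) gave -1.64 and -1.58. Joining lengthens domains, and keeping fewer domains widens gaps, by construction; the cause of the other moves was not tested. Depth is unknown, so what it limits could not be set.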
